A study of Mus musculus with 58 samples.

Results

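The expression of 9 genes that mark B cells and plasma cells was followed through whole-liver RNA of mice that differed in age, liver vector and drug. The 9 genes were taken by symbol from the 24537 genes of the deposited count table: Cd79a, Cd79b, Ms4a1, Blk, Pou2af1, Jchain, Mzb1, Tnfrsf17 and Derl3. The rule used the symbols alone, with no low-count filter, and each symbol had 1 row.

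B cells carry an antigen receptor made of membrane immunoglobulin and a pair of signalling chains, encoded by Cd79a and Cd79b. Ms4a1 encodes the B cell surface protein CD20, Blk a Src-family kinase that signals below the receptor, and Pou2af1 a coactivator that octamer-binding factors recruit in B cells and in antibody-secreting cells. After activation a B cell can become a plasma cell, which expands its endoplasmic reticulum and secretes antibody. Jchain encodes the joining chain of polymeric IgA and IgM, Mzb1 an endoplasmic reticulum cofactor of immunoglobulin assembly, and Tnfrsf17 the receptor BCMA, which binds the survival factors APRIL and BAFF. Derl3 encodes a protein of endoplasmic reticulum-associated degradation; it is abundant in plasma cells and is also induced by the unfolded protein response in other secretory cells. The liver holds resident and passing B cells, and IgA-secreting cells that can reach it from the gut.

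The mice were male C57BL6/J. All received an AAV8 vector with the TBG promoter, which is active in hepatocytes, carrying either Myc or the red fluorescent protein mApple as control. All were gavaged with vehicle or with ruxolitinib, which blocks the JAK kinases that signal below cytokine receptors, at 45 mg/kg 2 times a day for 30 days with a break at weekends. The young mice were 4 months old and formed 2 groups, mApple with vehicle (6 libraries) and Myc with ruxolitinib (10), so in young livers vector and drug cannot be told apart. The old mice formed 4 groups: mApple with vehicle (8), mApple with ruxolitinib (9), Myc with vehicle (11) and Myc with ruxolitinib (14). Of the 58 libraries, 18 came from a first sequencing batch, all from mice of 25 months, and 40 from a second batch, with the young mice and old mice of 24 months. Age among the old mice and batch therefore cannot be told apart. The labels number the libraries but do not say that each is a separate mouse, so p-values measure the spread between libraries.

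Exon counts per library ran from 10.68 to 40.99 M, with a median of 14.6 M. Myc, the gene carried by the vector, had 36 to 61.4 CPM (counts per M exon counts, with TMM scaling) in young Myc livers and 4.24 to 22.4 CPM in young mApple livers. Among old livers it had 24.4 to 111 CPM in the Myc ruxolitinib group, 6.93 to 132 CPM in the Myc vehicle group and 2.36 to 56.7 CPM in the mApple groups. The lowest value of the Myc vehicle group belonged to the library labelled 870, and the next lowest was 25.8 CPM. It goes against its label, since it lay below the medians of the old mApple groups (15.6 CPM with vehicle and 7.65 CPM with ruxolitinib). The highest mApple value belonged to the library labelled 855, and the next highest was 27.6 CPM. It also goes against its label, since it lay above the medians of the old Myc groups (37.9 CPM with vehicle and 33 CPM with ruxolitinib). Both labels were kept. Libraries 860 and 861, both old Myc ruxolitinib of the first batch, had the highest levels of Ptprc, the pan-leukocyte gene for CD45, at 119 and 99.5 CPM. All 9 hepatocyte markers listed were detected, 6 of 7 exocrine pancreas markers had a median of 0, and 3 of 4 spleen stroma markers had a median of 0.

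The members were scarce in whole liver. Jchain was the most abundant of them per length, with a median of 2.65 CPM per kb over the 58 libraries. Cd79a (1.46 CPM per kb), Derl3 (1.38) and Cd79b (1.34) came next and stood close to each other. Mzb1 (0.517), Ms4a1 (0.459), Pou2af1 (0.391) and Blk (0.23) were lower. Tnfrsf17 was close to undetected, with 17 counts in all, none in 46 libraries and at most 2 counts in 1 library. The median library held 96 counts of Jchain, 30 of Cd79a, 29 of Derl3, 25 of Cd79b, 15 of Pou2af1, 13 of Ms4a1, 9 of Blk and 8 of Mzb1, so single-library values of the last 4 carry wide counting error. Ms4a1 was at 0 in 1 library; the other 7 widely detected members had a count in every library. In bulk tissue, fewer cells of a type and less RNA per cell cannot be told apart.

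The rows lie on 9 chromosomes of mm10, in the coordinates of the count table. Cd79a is at chr7:24897511-24902197 on the plus strand and Cd79b at chr11:106311341-106314562 on the minus strand. Ms4a1 is at chr19:11250603-11266151 (minus), Blk at chr14:63372837-63417187 (minus) and Pou2af1 at chr9:51213690-51240079 (plus). Jchain is at chr5:88519809-88527897 (minus), Mzb1 at chr18:35647265-35649367 (minus), Tnfrsf17 at chr16:11313809-11320068 (plus) and Derl3 at chr10:75893398-75895941 (plus). In the GENCODE annotation Ms4a1 overlaps the antisense gene 4930526L06Rik, Mzb1 overlaps the protein-coding SPATA24 on the same strand, and Pou2af1 holds the sense-intronic Gm47828. The counting command in the header of the count table names no strand setting, so reads of Ms4a1 and its antisense partner cannot be told apart, and reads of Mzb1 and SPATA24 may be split.

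Across the 6 groups, 7 members had their 2 lowest medians in the 2 young groups. Jchain had medians of 0.736 CPM in young Myc ruxolitinib livers and 1.34 CPM in young mApple vehicle livers. In old livers its medians were 5.57 CPM (Myc ruxolitinib), 6.54 CPM (Myc vehicle), 8.87 CPM (mApple vehicle) and 9.31 CPM (mApple ruxolitinib). The young and old medians of Jchain lay far apart, while neighbouring groups in this order overlapped. Its highest single values, 46.3 and 27.7 CPM, were in libraries 870 and 866 of the first batch. Both are labelled old Myc vehicle, but the Myc level of 870, 6.93 CPM, lay below the medians of the old mApple groups, so its value is not firmly one of that group. Cd79a had medians of 0.527 and 0.755 CPM in the young groups and 2.04 to 2.43 CPM in the old groups. Cd79b had 0.573 and 0.599 CPM in the young groups and 1.8 to 2.03 CPM in the old. Both receptor chains thus stood at similar levels in each age class. Medians of Ms4a1 were 0.269 and 0.415 CPM in young and 0.913 to 1.2 CPM in old groups. Those of Pou2af1 were 0.39 and 0.409 CPM in young and 1.01 to 1.63 CPM in old groups. Blk had the narrowest step, from 0.317 and 0.376 CPM to between 0.571 and 0.675 CPM, and Mzb1 went from 0.191 and 0.233 CPM to between 0.529 and 0.624 CPM. Among neighbours in the order of medians of these 7 genes, the only 2 groups whose libraries did not overlap were young Myc ruxolitinib and old mApple vehicle for Cd79b, with medians 3.01 times apart. These 2 groups differ in age, vector, drug and batches. The share of all genes without overlap between them is not given, so this gap is no result about Cd79b. Old groups held libraries of both batches and young groups of 1, so these medians are a description, and the age tests below use the second batch alone.

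Derl3 followed another order. Its medians were 1.25 CPM in old mApple ruxolitinib livers, 1.36 CPM in old mApple vehicle livers, 1.44 CPM in young mApple vehicle livers, 1.79 CPM in old Myc ruxolitinib livers, 2.32 CPM in old Myc vehicle livers and 4.65 CPM in young Myc ruxolitinib livers. The 3 mApple groups were the lowest and the 3 Myc groups the highest, with neighbours overlapping at each step. The highest single value was 42.4 CPM in library 1146 of the old Myc vehicle group, whose other libraries lay between 1.51 and 3.24 CPM.

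Promoter sequence was available for 5 of the 9 members (Cd79a, Pou2af1, Jchain, Tnfrsf17 and Derl3) in RefSeq for GRCm38.p6, as the 250 bases before to 50 bases after each start. Short motifs were searched in them on both strands, after the values of the genes had been seen. The octamer ATTTGCAT, which the partner factors of Pou2af1 bind, was in 0 of the 5 and in 1.74% of 32851 promoters. The endoplasmic reticulum stress element, CCAAT and CCACG with any 9 bases between them, was in Derl3, on the minus strand from -156, and in 0.12% of promoters. Its CCACG part alone was in 3 of the 5 and in 32.77% of promoters. TGACGTGG, the unfolded protein response element, which overlaps the complement of CCACG, was in Pou2af1 from -61 and in 0.68% of promoters. An interferon-stimulated response element, GAAA and GAAA with any 2 bases between them, was in Tnfrsf17 from -101 and in 3.44% of promoters. The 100-base windows below show the 2 promoters with an endoplasmic reticulum stress or unfolded protein response element, and that of Jchain, the member with the largest age difference. Each reads 5′ to 3′ along its gene; capitals mark CCACG on either strand and, in Derl3, the ATTGG that completes the stress element. A match is a run of letters, and whether a factor binds it was not measured.
Derl3, chr10:75893168-75893267, plus strand, -230 to -131: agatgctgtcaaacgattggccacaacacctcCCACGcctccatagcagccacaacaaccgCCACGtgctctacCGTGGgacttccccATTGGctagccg
Pou2af1, chr9:51213580-51213679, plus strand, -110 to -11: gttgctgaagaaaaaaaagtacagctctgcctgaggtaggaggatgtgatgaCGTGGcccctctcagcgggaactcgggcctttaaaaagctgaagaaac
Jchain, chr5:88527898-88527997, minus strand, -100 to -1: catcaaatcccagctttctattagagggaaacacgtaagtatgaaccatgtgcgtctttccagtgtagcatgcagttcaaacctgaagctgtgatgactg

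The first age comparison set 4 old against 6 young mApple vehicle livers of the second batch. Jchain rose with age and was the 1 member of 9 to pass the test, where 1.05% of the 18650 genes fitted passed in either direction (0.879% higher, 0.166% lower). Jchain had 9.89, 14.9, 7.85 and 5.57 CPM in the old livers, and a lowest, median and highest value of 0.714, 1.34 and 2.21 CPM in the young. No old library overlapped the young ones, as held for 2.77% of genes in this direction. The means were 9.55 ± 3.97 CPM (SD, n = 4) and 1.41 ± 0.577 CPM (SD, n = 6). The fitted log2 fold change was 2.74 ± 0.31 (SE), a fold of 6.68, with an adjusted p of 0.00165 in edgeR's quasi-likelihood test.

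The B cell members were also higher on average in these old livers, but did not pass the test. Cd79a had 2.47, 2.48, 0.931 and 1.92 CPM in the old livers against 0.556 to 1.71 CPM in the young, and 3 of the 4 old libraries were above every young one. Its log2 fold change was 1.15 ± 0.36 (SE; edgeR adjusted p = 0.138). Cd79b had 1.84, 1.28, 1.53 and 1.28 CPM against 0.443 to 1.39 CPM, with 2 of 4 old libraries above every young one. Its log2 fold change was 1.05 ± 0.33 (edgeR adjusted p = 0.151). Pou2af1 had 1.9, 1.36, 1.06 and 0.581 CPM against 0.214 to 0.816 CPM, with 3 of 4 above, and a log2 fold change of 1.44 ± 0.41 (edgeR adjusted p = 0.113). For each of these 3 genes the highest young value, which the old range reached or crossed, came from 1 library, 1129. Without it Cd79a, Cd79b and Pou2af1 passed the test as well (edgeR adjusted p = 0.0285, 0.0254 and 0.0385), which makes 4 members called in place of 1. Library 1129 is named here because of these same values, and the share of all genes passing without it is not given. The 4 calls are therefore no separate support for a rise. Ms4a1 had a log2 fold change of 1.03 ± 0.49, Blk of 0.65 ± 0.48, Mzb1 of 0.47 ± 0.53 and Derl3 of 0.12 ± 0.46, and none of the 4 passed (edgeR adjusted p from 0.338 to 0.916). Tnfrsf17 had 1 count in each of 2 old libraries and none in the 6 young ones, too few for a fold. The median log2 fold change was 1.05 over the 9 members and 0.02 over all genes fitted. A filter on low counts was passed by 7 members, all but Mzb1 and Tnfrsf17.

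The second age comparison set 10 old against 10 young Myc ruxolitinib livers of the second batch and shares no library with the first. Depth differed with age here: exon counts ran from 11.88 to 40.99 M in the old and from 11.19 to 13.15 M in the young libraries. Every old library but 1157 was deeper than every young one, so low young values rest on fewer counts. Jchain, Cd79a, Cd79b, Ms4a1 and Mzb1 rose with age, and Derl3 fell. These are 6 of 9 members (5 higher, 1 lower), where 21.8% of the 19480 genes fitted passed in either direction (12.5% higher, 9.31% lower). The lowest, median and highest Jchain values were 1.32, 4.01 and 10.5 CPM in the old livers and 0.294, 0.736 and 1.02 CPM in the young. All 10 old libraries were above every young one, as held for 1.2% of genes in this direction. The means were 5.03 ± 3.3 CPM (SD, n = 10) and 0.691 ± 0.238 CPM (SD, n = 10). The log2 fold change of Jchain was 2.85 ± 0.38 (SE), a fold of 7.23, with an edgeR adjusted p of 2.02e-05.

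The receptor chains rose together in this pair of groups. Cd79b had a lowest, median and highest value of 0.634, 1.81 and 2.67 CPM in old and 0.154, 0.599 and 0.867 CPM in young livers. Of the 10 old libraries 8 were above every young one, and its log2 fold change was 1.44 ± 0.29 (edgeR adjusted p = 0.00102). Cd79a had 0.317, 1.42 and 2.97 CPM in old and 0.153, 0.527 and 1.22 CPM in young livers. Here 6 of the 10 old libraries were above every young one, and the log2 fold change was 1.41 ± 0.39 (edgeR adjusted p = 0.012). Ms4a1, with 0.229, 0.838 and 1.5 CPM in old and 0, 0.269 and 0.958 CPM in young livers, had a log2 fold change of 1.21 ± 0.42 (edgeR adjusted p = 0.0405). This call was not firm: leaving out any 1 of 13 libraries raised the adjusted p above the threshold, to at most 0.0863. Mzb1 had 0.132, 0.504 and 0.63 CPM in old and 0.0768, 0.233 and 0.463 CPM in young livers, with a log2 fold change of 0.97 ± 0.30 (edgeR adjusted p = 0.0209). In a single fit of all 58 libraries Mzb1 did not pass. Pou2af1 (0.97 ± 0.35, edgeR adjusted p = 0.0504) and Blk (0.77 ± 0.34, edgeR adjusted p = 0.107) did not pass. Tnfrsf17 had at most 1 count in any of these libraries. The median log2 fold change was 0.97 over the 9 members and 0.05 over all genes fitted. A filter on low counts was passed by 4 members (Cd79a, Cd79b, Jchain and Derl3).

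Derl3 had the opposite direction. Its lowest, median and highest values were 0.547, 1.62 and 3.27 CPM in old and 1.83, 4.65 and 11 CPM in young Myc ruxolitinib livers. In this case 7 of the 10 old libraries were below every young one, and the log2 fold change was -1.63 ± 0.34 (edgeR adjusted p = 0.0018). Derl3 was thus lower with age in the same libraries in which Jchain and Mzb1 were higher. The 2 groups also differed in Myc, which had 24.4 to 45.8 CPM in these old and 36 to 61.4 CPM in these young livers. The part of the Myc level in the Derl3 difference was not tested.

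The difference between the 2 age effects was tested in a fit of all 4 groups of the second batch. No member passed in edgeR, DESeq2 or limma voom, where edgeR called 0.0658% of all genes, and 1 member had an unadjusted p under 0.05. For Jchain the difference was 0.12 ± 0.56 on the log2 scale, with a 95% interval from -0.97 to 1.21, so the 2 age effects of Jchain were not told apart at this precision. For Derl3 it was -1.73 ± 0.64 (unadjusted p = 0.0118, edgeR adjusted p = 0.275).

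Further genes of the B lineage were read against all genes, of which 12.5% passed as higher and 9.31% as lower in the Myc ruxolitinib age comparison, and 0.879% and 0.166% in the mApple vehicle one. In the Myc ruxolitinib livers 7 of 24 further B cell genes rose with age and none fell, with a median log2 fold change of 0.62 against 0.05 over all genes. The 3 with the smallest p were Blnk, an adaptor below the B cell receptor (1.54 ± 0.27, edgeR adjusted p = 0.000329), Ly6d (1.78 ± 0.40, 0.00274) and Cd72, an inhibitory coreceptor (0.68 ± 0.17, 0.00515). In the mApple vehicle livers 0 of 24 passed in edgeR and 10 had an unadjusted p under 0.05, with a median of 0.82. The same order by p gave Blnk (1.46, edgeR adjusted p = 0.0672), Spib (1.28, 0.0879) and Cd37 (1.09, 0.0917). Plasma cell genes were mixed. In the Myc ruxolitinib livers 4 of 18 rose and 5 fell, with a median of -0.04, close to that of all genes. Eaf2 rose by 0.90 ± 0.24 (edgeR adjusted p = 0.00956) and Sdc1, which encodes the plasma cell surface proteoglycan CD138 and is also made by hepatocytes, rose by 0.56 ± 0.13 (0.00452). Ell2, an elongation factor used in antibody secretion, fell by 0.43 ± 0.08 on the log2 scale (0.00035). Prdm1 (1.11, edgeR adjusted p = 0.0103) and Slamf7 (1.02, 0.047) also rose. Cd38 (-0.4, 0.0312), Creld2 (-1.07, 0.0221), Edem1 (-0.27, 0.0496) and Cd93 (-0.65, 0.0284) also fell. Medians in the young Myc ruxolitinib livers were 90.5 CPM for Ell2, 217 CPM for Edem1 and 0.46 CPM for Prdm1. The cell types behind these reads were not measured, so the list does not describe plasma cells alone. In the mApple vehicle livers 0 of 18 passed in edgeR and 4 had an unadjusted p under 0.05, with a median of 0.16. Of 13 immunoglobulin constant region symbols looked for, 0 were in the count table, so these genes were not analysed here.

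Among signals that attract or sustain B cells, 2 of 11 rose with age in the Myc ruxolitinib livers: Tnfsf13, which encodes APRIL, a ligand of the receptor encoded by Tnfrsf17 (0.49, edgeR adjusted p = 0.00286), and Ltb, the membrane subunit of lymphotoxin (1.24, 0.00931). With 12.5% of all genes higher in that comparison, a count of 2 is near the background and is not a result about these signals. In the mApple vehicle livers 0 of the 11 passed in edgeR, and 1 had an unadjusted p under 0.05.

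Markers of other cells were counted in the same comparisons. In the mApple vehicle livers 1 of 14 T cell markers (Cd8a, 2.72 ± 0.51, edgeR adjusted p = 0.0192), 1 of 6 leukocyte genes (Coro1a, 1.65 ± 0.21, 0.00276) and 2 of 9 neutrophil markers (S100a8, 2.61, 0.0139; S100a9, 2.24, 0.0144) rose, where 0.879% of all genes did, and no hepatocyte, Kupffer cell, NK cell or plasmacytoid dendritic cell marker passed. In the Myc ruxolitinib livers 2 of 14 T cell markers, 2 of 6 leukocyte genes, 3 of 8 NK cell markers, 4 of 9 neutrophil markers, 2 of 8 plasmacytoid dendritic cell markers (Lag3 and Atp1b1) and 1 of 8 Kupffer cell markers (Cd5l, 0.74) rose. The other plasmacytoid dendritic cell markers did not pass and had both signs: Siglech (-0.47), Ccr9 (-0.89), Cox6a2 (-0.97), Klk1 (0.2), Runx2 (0.46) and Pacsin1 (0.19). With 12.5% of all genes higher, the T cell and Kupffer cell counts are near the background. The T cell calls were Cd8a (2.42, edgeR adjusted p = 0.00129) and Cd8b1 (1.92, 0.0049), both larger changes than that of Cd79b (1.44). The NK cell calls were Nkg7 (2.13), Eomes (2.29) and Klrk1 (1.27). Ncr1 (0.38), Klrb1c (0.38), Klre1 (0.2), Gzma (0.38) and Prf1 (0.82) of the same list did not pass. Of 9 hepatocyte markers 2 rose (Alb and Apoa1) and 3 fell (Cyp3a11, Cps1 and Hnf4a). Summed T cell markers ranged from 11.8 to 22.6 CPM in old and 8.88 to 14.4 CPM in young mApple vehicle livers, and from 5.55 to 21.4 CPM and 6.28 to 8.88 CPM in old and young Myc ruxolitinib livers. Summed leukocyte genes ranged from 178 to 282 CPM and 146 to 234 CPM in the first pair of groups, and from 120 to 236 CPM and 140 to 173 CPM in the second. The summed neutrophil markers were 4.72 to 20.1 CPM in old and 1.07 to 3.02 CPM in young mApple vehicle livers, with no overlap, and 1.97 to 14.6 CPM and 0.534 to 2.55 CPM in old and young Myc ruxolitinib livers. The T cell and leukocyte sums overlapped between ages. Calls alone leave out the size of the changes. In the mApple vehicle livers Cd2 (1.97, edgeR adjusted p = 0.0942), Thy1 (1.12, 0.102) and Cd52 (1.1, 0.0565) did not pass. Their log2 fold changes were no smaller than that of Cd37 (1.09). Of the T cell markers, Cd4 (-0.76) and Cd247 (-0.15) went the other way there. A rise with age was thus not particular to genes of the B lineage. The part of other cell types in the member differences was not tested.

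In young livers, Myc with ruxolitinib against mApple with vehicle set 10 libraries against 6. Of the 9 members 2 passed, where 17.5% of the 18779 genes fitted did (8.84% higher, 8.65% lower): Derl3 rose and Jchain fell. A count of 2 is near the background and is not a result about the members as a set. Derl3 had 0.181, 1.44 and 2.28 CPM as lowest, median and highest value with mApple and vehicle, and 1.83, 4.65 and 11 CPM with Myc and ruxolitinib. Its log2 fold change was 2.00 ± 0.47, a fold of 4 (edgeR adjusted p = 0.00724), and the groups overlapped. Jchain had 0.714, 1.34 and 2.21 CPM with mApple and vehicle, and 0.294, 0.736 and 1.02 CPM with Myc and ruxolitinib. Its log2 fold change was -1.03 ± 0.27 (edgeR adjusted p = 0.0088), again with overlap. In a single fit of all 58 libraries Jchain had the same value but an adjusted p of 0.255. The other members detected in most libraries had log2 fold changes from -0.59 to -0.03. Only Jchain and Derl3 passed a filter on low counts here. These libraries are the young side of both age comparisons, so the values are not independent of those above.

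Beside these values, 5 of 9 hepatocyte markers fell and 1 rose in the same comparison, where 8.65% and 8.84% of all genes did, and the summed hepatocyte markers were 86500 to 112000 CPM with Myc and ruxolitinib and 128000 to 221000 CPM with mApple and vehicle. In addition 3 of 8 NK cell markers and 1 of 14 T cell markers (Cd4, -1.18) fell. Of 18 plasma cell genes 2 rose, Fkbp11 (0.92, edgeR adjusted p = 0.000557) and Pycr1 (1.05, 0.0274), and 1 fell, the transcription factor gene Xbp1 (-0.69, 0.000215). Of 24 further B cell genes 1 fell, Ralgps2 (-0.24). The T cell, B cell and plasma cell counts are near the background. The part of these shifts in the 2 member differences was not tested.

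The same pair of treatments was compared in old livers of the second batch, 10 Myc ruxolitinib against 4 mApple vehicle libraries. No member passed, where 7.02% of genes did, and none had an unadjusted p under 0.05 in edgeR; DESeq2 and limma voom called none either. Jchain had a log2 fold change of -0.91 ± 0.47 (edgeR adjusted p = 0.285) and Derl3 of 0.28 ± 0.40.

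The 4 single-factor comparisons in old livers used both batches with batch as a term, and edgeR called no member in any of them, nor did DESeq2 or limma voom with quality weights. DESeq2 gave no adjusted p for Derl3 where the old Myc vehicle group entered. Each of the 4 old groups enters 2 of these comparisons. Ruxolitinib in old mApple livers (9 against 8) called 0.243% of genes and 0 of 9 members, and no member had an unadjusted p under 0.05. The log2 fold changes of members ran from -0.33 (Blk) to 0.56 (Mzb1). Jchain had 5.03, 9.31 and 19.8 CPM as lowest, median and highest value with the drug and 5.57, 8.87 and 16.5 CPM with vehicle, and these ranges lay over each other. Its log2 fold change was -0.04 ± 0.29, with a 95% interval from -0.6 to 0.52.

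Ruxolitinib in old Myc livers (14 against 11) called 0.469% of genes and 0 of 9 members. Derl3 and Tnfrsf17 had an unadjusted p under 0.05. The Derl3 value of -1.57 ± 0.50 (edgeR adjusted p = 0.208) rested on library 1146 of the vehicle group, without which it was -0.22. Cd79b had a log2 fold change of 0.74 ± 0.38 (edgeR adjusted p = 0.411), and the 2 batches had opposite signs. In the first batch its values were 22.1, 7.59, 13.0 and 3.02 CPM in the 4 ruxolitinib libraries and 1.45 to 4.99 CPM in the 6 vehicle libraries. The first and second of these values came from libraries 860 and 861, where Ptprc was highest. Within the first batch the log2 fold change was 2.09 (edgeR adjusted p = 0.0385), and within the second it was -0.3. Without libraries 860 and 861 the value over both batches was 0.37 (edgeR adjusted p = 0.916). Jchain had a log2 fold change of -0.66 ± 0.43 (edgeR adjusted p = 0.514), and of -0.4 without the library labelled 870.

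The Myc vector in old vehicle livers (11 against 8) called 11.2% of genes and 0 of 9 members, and only Derl3 had an unadjusted p under 0.05. Derl3 had 1.51, 2.32 and 42.4 CPM as lowest, median and highest value with Myc and 0.813, 1.36 and 1.68 CPM with mApple, so the groups overlapped at the lower end of the Myc group alone. Its log2 fold change was 1.91 ± 0.70 (unadjusted p = 0.0145, edgeR adjusted p = 0.093). Without library 1146 the log2 fold change was smaller, 0.73, and passed the test (edgeR adjusted p = 0.0146). The other 8 members had log2 fold changes from 0.01 to 0.44, with edgeR adjusted p from 0.594 to 0.993.

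The Myc vector in old ruxolitinib livers (14 against 9) called 9.01% of genes and 0 of 9 members. Jchain was the 1 member with an unadjusted p under 0.05, at -0.65 ± 0.31 (unadjusted p = 0.0446, edgeR adjusted p = 0.199), and Derl3 had a log2 fold change of 0.26. The difference between old Myc and old mApple livers in the ruxolitinib effect called 0% of genes and 0 of 9 members in edgeR, and no member in DESeq2 or limma voom. Derl3 had the only unadjusted p under 0.05 among the members, at -1.98 ± 0.70 (unadjusted p = 0.00742, edgeR adjusted p = 0.879), and -0.5 without library 1146.

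**Figure D1:**
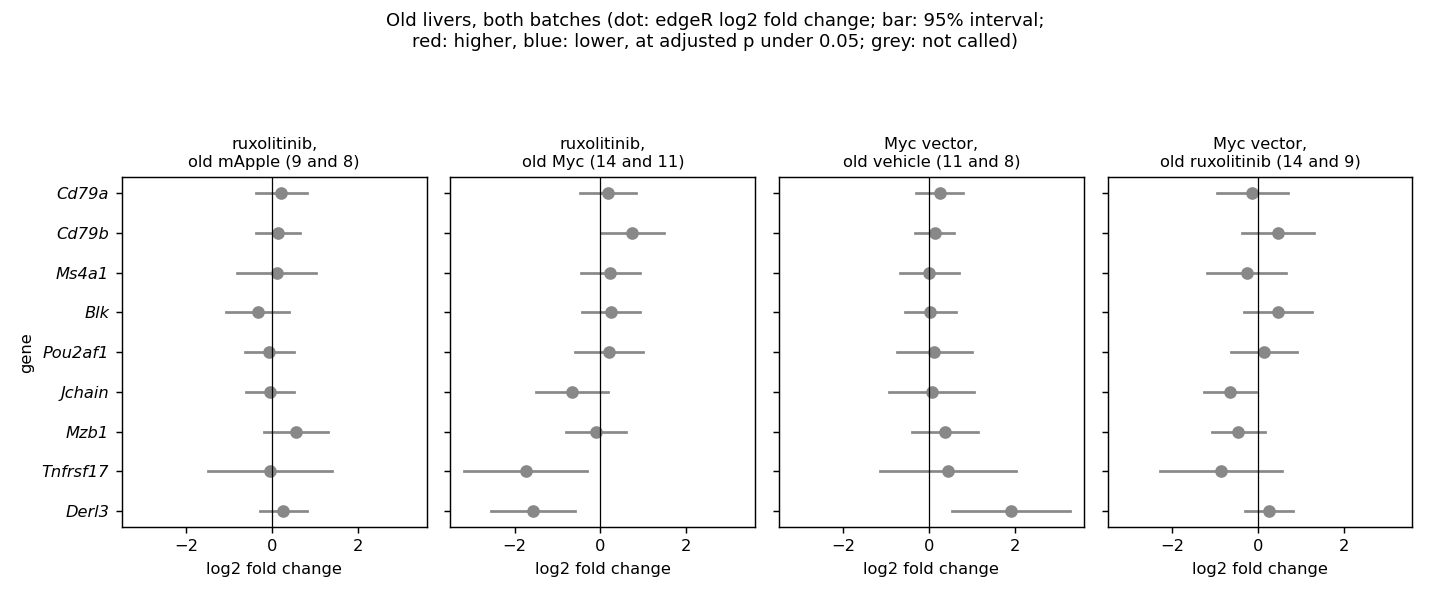
Dots are edgeR log2 fold changes of the 9 members in the 4 single-factor comparisons of old livers, with 95% intervals as bars, and grey marks genes that did not pass. All dots are grey, and the points farthest from 0 among well-detected members are those of Derl3, at -1.57 and 1.91.

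Libraries with much of one B cell gene had much of the others. After each group-and-batch mean was subtracted from log2(CPM + 1), the 10 pairs among Cd79a, Cd79b, Ms4a1, Blk and Pou2af1 had Pearson r from 0.67 to 0.84 over the 58 libraries. Mzb1 correlated with these 5 genes at 0.56 to 0.67 and with Jchain at 0.58. Jchain stood apart from the B cell genes, with r from 0.38 to 0.54. Derl3 had r between -0.32 and 0.10 with the other 7. The points share library and depth, so these values describe the libraries and carry no p. Without libraries 860, 861, 864 and 865 the ranges were 0.67 to 0.88, 0.59 to 0.68, 0.4 to 0.55 and -0.31 to 0.11. Library 866, old Myc vehicle, was among the 6 highest of 58 for 7 of the 8 widely detected members, and libraries 862 and 868 for 6 each. Libraries 866, 862 and 868 stayed in when 860, 861, 864 and 865 were left out, so those ranges do not show the correlations without them.

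The ratio of Jchain to Cd79a counts, which compares a plasma cell product with a receptor chain within a library, had group medians of 1.58 and 1.19 in young and 2.83 to 3.85 in old livers. Its ranges overlapped between all groups. The ratio of Cd79b to Cd79a had medians from 0.794 to 1.1, and reached 3.26 in library 860 among old livers.

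**Figure D2:**
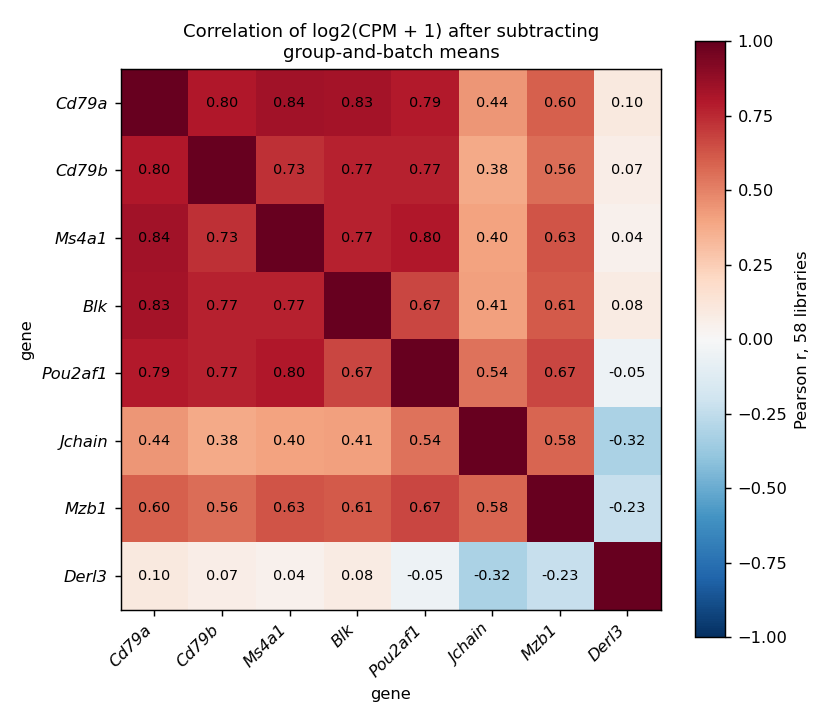
Each cell gives Pearson r between the log2(CPM + 1) values of 2 members over 58 libraries after subtraction of group-and-batch means. Cd79a, Cd79b, Ms4a1, Blk and Pou2af1 form a block from 0.67 to 0.84, Jchain and Mzb1 lie below it, and the Derl3 row runs from -0.32 to 0.10.

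Genes most like the B cell members were sought among 12774 genes with a mean of at least 1 CPM, by correlation with the mean log2(CPM + 1) of Cd79a, Cd79b, Ms4a1 and Blk after the same subtraction. Among the 8 nearest named genes were H2-Ob (r = 0.85), Fcmr (0.85), Spib (0.83), Cxcr5 (0.83), Cd22 (0.8), Cd37 (0.77) and Atp2a3 (0.77). Cd22 encodes an inhibitory B cell coreceptor, Fcmr the receptor for IgM, and Cxcr5 the chemokine receptor that guides B cells into follicles. For the mean of Jchain, Mzb1, Tnfrsf17 and Derl3 the nearest were Cxcr5 (0.63), Hvcn1 (0.58), Tbc1d10c (0.58), Gimap3 (0.57), Efnb1 (0.57), Acap1 (0.56), Spib (0.56) and H2-Ob (0.55). Without the subtraction 7 of the first 8 and 4 of the second 8 were shared. The second set had lower correlations and no gene of the plasma cell list among the 8. Its mean joins genes that did not vary together: Derl3 had r = -0.32 with Jchain and -0.23 with Mzb1, and Tnfrsf17 had no count in 46 libraries. The lower correlations therefore say little about likeness to plasma cells.

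Jchain and Derl3 were also taken singly, after the values had been seen. Nearest to Jchain were P3h3 (0.66), Jag1 (0.64), Il7r (0.61), Gimap3 (0.59) and Btla (0.59). This order depends on the subtraction of group-and-batch means: without it Jag1 had r = 0.16 and P3h3 0.55, while Il7r (0.81), Gimap3 (0.82) and Btla (0.78) were higher, and 3 of the 8 nearest genes were shared. Nearest to Derl3 were Dnajc3 (0.70), Pdia3 (0.69), Hsp90b1 (0.65), Pdia4 (0.63), Pdia6 (0.61), Dnajb11 (0.6), Calr (0.6) and Creld2 (0.59). Without the subtraction these 8 had r from 0.48 (Dnajc3) to 0.71 (Pdia3), and 4 of the 8 nearest were shared. These 8 encode chaperones, disulfide isomerases and related proteins of the endoplasmic reticulum, which all cells of the liver contain. Creld2 was highest of 58 in library 1119 at 118 CPM and had rank 2 in library 1128 at 85 CPM, the young Myc ruxolitinib libraries with the 2 highest Derl3 values of that group, 11 and 10.8 CPM. Library 1146, with the highest Derl3, had rank 1 of 58 for Fkbp11 (12.9 CPM), rank 5 for Creld2 (52.9 CPM) and rank 21 for Hspa5 (647 CPM), the main chaperone of the compartment. Edem1, a further gene of the plasma cell list, was not high there. It had at most 169 CPM in the old Myc vehicle group, against at least 198 CPM in young mApple vehicle and 201 CPM in young Myc ruxolitinib livers. In library 1146 Jchain was 2.02 CPM, the lowest of its group.

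**Figure D3:**
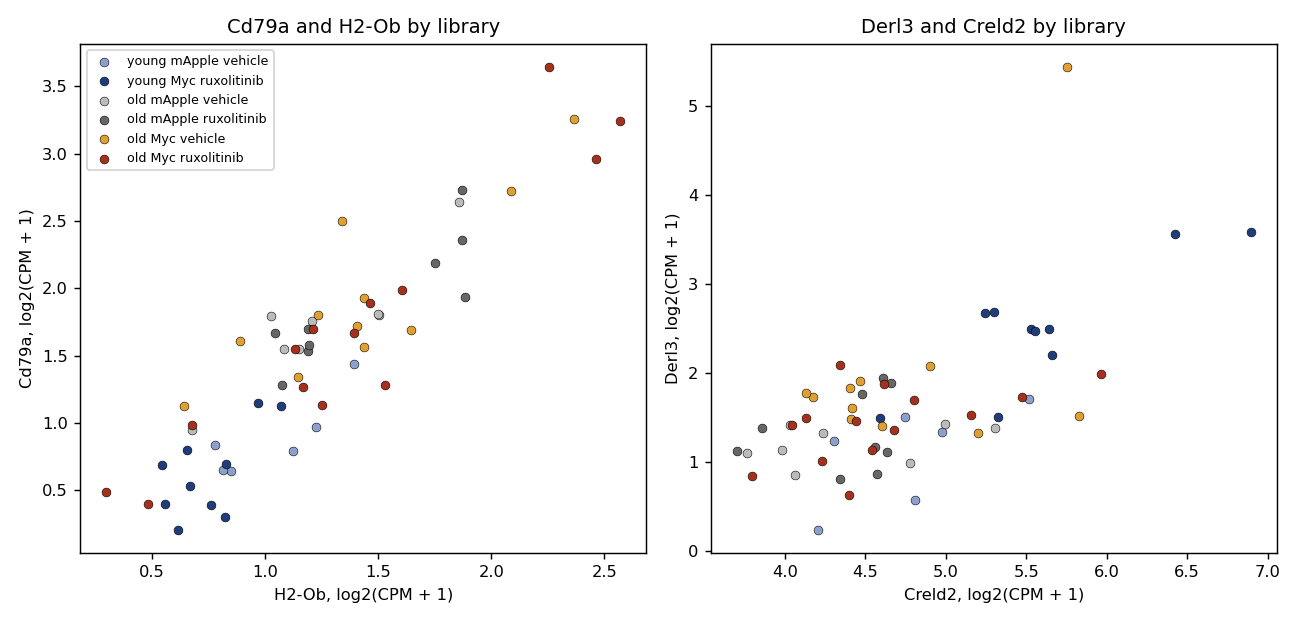
Each point is 1 library, coloured by group, with log2(CPM + 1) of Cd79a against H2-Ob on the left and of Derl3 against Creld2 on the right. Libraries with more H2-Ob tend to have more Cd79a on the left, and on the right library 1146 lies far above the other points, at 42.4 CPM of Derl3 and 52.9 CPM of Creld2.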

How the data were processed

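Polyadenylated RNA of whole liver was sequenced in paired 75-base reads, per the labels' protocols. Reads were aligned and counted with STAR and HOMER on GRCm38 (mm10), per the submitters' processing notes, with versions not given in the sources used here. The deposited values are estimated counts per gene over exons, 1 row per symbol, from a HOMER command without a strand setting, per the file headers. They come in steps of 0.5, so 29.9% are not whole, and were rounded up to whole counts. The deposited length column, in bases, was used for CPM per kb.

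Groups came from the sample titles. Each comparison fitted its own groups with edgeR 4.0.16 (quasi-likelihood, robust, TMM scaling, R 4.3.3), over every gene with a count and with no low-count filter. Batch entered the model as a term if libraries of both batches entered. P-values were Benjamini-Hochberg adjusted over all genes fitted, with a threshold of 0.05. SE is the absolute log2 fold change over the square root of F, and 95% intervals are normal. Levels are CPM with TMM over all 58 libraries. The median member count per library, 0 to 96, limits precision. The procedure was tested on simulated data.

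Alternatives were a low-count filter (minimum count 10), RLE size factors, library totals in place of TMM, DESeq2 1.42.0, limma 3.58.1 voom with quality weights, a single fit of all libraries, no batch term, each batch alone, and leaving out libraries. No pair of libraries was identical. The members and lists were chosen with earlier results of these data known. Named genes were the members, up to 3 genes per list by smallest p, and the 8 nearest genes by correlation, of which 1 is not reported here. The library levels of Ptprc, Fkbp11, Creld2 and Hspa5, the likeness to Jchain and Derl3 singly, and the motifs were chosen after values were seen. The group range of Edem1 and the age values of Cd2, Thy1, Cd52, Cd4 and Cd247 were also chosen then. So were the further age values of the plasma cell, NK cell and plasmacytoid dendritic cell lists. The young medians of Ell2, Edem1 and Prdm1 and the Myc ranges of the second batch were added in the same way.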

Additional observations from a re-analysis of the deposited data

Results flagged for a closer look

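In groups of 4 to 10 libraries, 35 sets of a gene and a group were screened for a library far from the others by Dixon's gap test, which chance passes in about 1 of 20 sets, or 1.75 sets here. The only set that passed was library 1128 of the young Myc ruxolitinib group with 0.0786 CPM of Tnfrsf17, which is 1 count, where the 9 other libraries of the group had 0. A single count is within counting error of 0.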

How the results depend on the processing

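The alternatives to the main analysis gave 323 results with the same direction and side of the threshold, 12 that newly passed, 2 that no longer passed (Mzb1 with age in Myc ruxolitinib livers and Jchain in young livers, both in the single fit of all libraries), 5 counts that moved by over 1.5 times and 7 that changed sign, none of them for a called member. The counts that moved were members called for age in mApple vehicle livers, 4 with voom; for ruxolitinib in old Myc livers, 1 in the single fit and 1 in the first batch alone; for the Myc vector in old vehicle livers, 1 in the single fit; and for young Myc ruxolitinib against mApple vehicle, 1 in the single fit. The log2 fold changes that changed sign were, for ruxolitinib in old mApple livers, Mzb1 (-0.02, first batch alone), Derl3 (-0.12, second batch alone) and Jchain (0.05 with voom, 0.34 in the first batch alone). For ruxolitinib in old Myc livers they were Derl3 (0.05, first batch alone) and Cd79b (-0.3, second batch alone), and for age in mApple vehicle livers Derl3 (-0.14, voom). The cause was not tested. In the age comparison of Myc ruxolitinib livers, members called ran from 4, where the low-count filter left fewer members to test, to 9 with voom, a count that includes Tnfrsf17, which had 1 count in 1 library of each group and so no measurable difference.

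Leaving out 1 library at a time gave 0 to 1 members called for the Myc vector in old vehicle livers (1 without 1146) and 1 to 4 for age in mApple vehicle livers (4 without 1129). Ranges of log2 fold changes that crossed 0 were -0.16 to 0.13 for Jchain with ruxolitinib in old mApple livers, -0.02 to 0.83 for Mzb1 and -0.08 to 0.36 for Derl3 with age in mApple vehicle livers, -1.13 to 0.71 for Tnfrsf17 with age in Myc ruxolitinib livers, and -0.07 to 0.41 for Jchain in the difference between the age effects. Jchain with age ranged from 2.66 to 2.96 in Myc ruxolitinib livers. Leaving out 860, 861, 864 and 865 together, or 870, changed no count of members called. No paired analysis was possible because each library has its own number, so no number is shared between groups. Depth limits Tnfrsf17, and widens the error of Blk, Mzb1, Ms4a1 and Pou2af1.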
